A study of Mus musculus with 18 samples.

Results

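The comparison described here is the maturation of the wild type vestibular organ between postnatal days 15 and 90 (P15 and P90). It sets the 3 arrays of Igf1 +/+ mice at P90 against the 3 arrays of Igf1 +/+ mice at P15, so 6 of the 18 arrays of the series enter it. All 19106 autosomal genes that were named by a probe set of their own were members, and no gene was chosen by its signal. The mice of both groups had a hybrid background of Mf1 with 129/sv, and the labels name no drug or other treatment apart from anaesthesia and perfusion with paraformaldehyde before dissection. The remaining arrays came from Igf1 +/+ mice at E18.5, before birth, and from Igf1 -/- mice, which carry a null allele of insulin-like growth factor 1, at the same 3 ages. Total RNA was hybridised to Affymetrix Mouse Gene 1.1 ST arrays, whole-transcript arrays whose probe sets lie along the exons of a gene. The labels number the arrays of a group as biological replicates without saying whether each is 1 animal or a pool. The p-values rest on the spread from array to array, which may not be the spread between single animals.

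The vestibular organ senses head movement and gravity with hair cells that are set among supporting cells, under a gelatinous membrane or a cupula and, in the maculae, a layer of otoconia. In the mouse some of its hair cells form before birth and others in the weeks after it, and the bony labyrinth around it, the marrow in the temporal bone and the nearby muscles go on growing after birth. In growing bone, osteoblasts lay down collagen I and mineral, osteoclasts resorb it, and marrow spaces hold dividing blood precursors, among them B cell precursors that rearrange their immunoglobulin genes.

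Values are normalised signals on a log scale taken as natural, on which a difference of 1 is 2.72-fold. The labels do not state the base. The highest deposited value of 10.03 would stand for an intensity of 22700 in base e and of 1046 in base 2. A gene was said to have risen or fallen where limma's moderated test, fitted on all 18 arrays, gave a Benjamini-Hochberg adjusted p under 0.05 over 19938 genes. Precision is limited by having 3 arrays in a group. In bulk tissue fewer cells of a type and less RNA per cell cannot be told apart. The share of surrounding bone, marrow, muscle and brain in each sample was not tested. A difference in that share between the ages cannot be told apart from maturation of the organ.

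The description field of the P15 and P90 wild type arrays reads Igf1 -/-, whereas their titles, source names and genotype fields read Igf1 +/+. The groups follow the latter. The Igf1 signal was 5.87, 6.11 and 5.89 on the wild type P15 arrays and 5.63, 5.39 and 5.56 on those of P90. On their own these values do not settle which label is right. Markers that define the ear were measured at both ages. Coch, the cochlin of otic fibrocytes, read 7.56, 7.59 and 7.63 at P15 and 7.94, 7.84 and 7.77 at P90. Myo7a, a myosin of hair cell stereocilia, read 4.58, 4.74 and 4.46 and then 4.54, 4.60 and 4.32. Markers of tissue around the organ were measured too. Gabra6, a GABA receptor subunit of cerebellar granule neurons, read 8.02, 7.71 and 8.19 at P15 and 7.88, 8.16 and 8.31 at P90, and Ckm, the creatine kinase of muscle, read 7.65, 7.35 and 7.41 and then 8.15, 7.80 and 8.23. The sexes of the animals were not balanced between the ages. Xist, which marks female cells, read 7.48, 5.34 and 7.48 on the P15 arrays and 3.33, 2.87 and 1.86 on the P90 arrays, while the mean of 3 Y-linked genes lay between 5.56 and 6.32 on all 6. The P15 arrays thus carried the signals of both sexes, which RNA from a single male or female does not give, with Xist lower on replicate 2, while the P90 arrays carried mainly the male signal. The part of sex in the results was not tested on its own, since age and the sex score move together. With a sex score in the fit 291 genes rose and 540 fell.

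Between P15 and P90 the signal of 1559 genes (8.16%) rose and that of 1853 genes (9.70%) fell, together 17.9% of all 19106. More falls than rises were large, since 186 genes fell and 62 rose by more than 1 log unit. This count was not repeated on other scalings. The median change was 0.49 among the genes that rose and -0.52 among those that fell, against 0.01 over all genes. The 3 arrays of P90 lay wholly above or wholly below the 3 of P15 for 6513 genes (34.1%). The counts depended on single arrays. Without P15 replicate 2, 465 genes rose and 745 fell. Without P90 replicate 2 the counts were 500 and 820, without P90 replicate 1 844 and 1332, and without P15 replicate 1 996 and 1296. A set of 206 genes, 67 higher and 139 lower, passed the test under all 15 alternatives. The split also depended on scaling: 45.7% of the calls were rises, against 35.7% with array medians subtracted and 91.4% on the deposited values, where the median of all genes shifted by -0.08 and 0.20.

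Among the genes with the largest rises was Jchain, which encodes the joining chain of polymeric antibodies. It read 2.33, 1.92 and 3.32 at P15 and 5.48, 5.14 and 5.41 at P90, a rise of 2.82 (SE 0.45, adjusted p = 0.00121). Every P90 array lay more than 1 log unit above every P15 array. Cyp2e1, a cytochrome P450 that oxidises ethanol and other small molecules, read 2.63, 2.56 and 2.79 and then 5.19, 4.15 and 4.50, a rise of 1.95 (SE 0.27, adjusted p = 0.000389). Serpina3n, an acute-phase inhibitor of serine proteases, read 4.11, 4.07 and 4.15 and then 5.70, 5.61 and 6.02, a rise of 1.67 (SE 0.19, adjusted p = 9.45e-05). The 3 P15 arrays of Serpina3n were nearly level, and the rise passed the test under all 15 alternatives. Exph5, an effector of Rab27 in vesicle transport, rose by 1.34, and Ntsr2, a neurotensin receptor, by 1.31.

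Of the 12 largest rises 4 were genes known from muscle, a grouping made after their values were seen. None of them is on the skeletal muscle list described below. Mss51, a mitochondrial protein of fast muscle fibres, read 5.67, 5.38 and 5.69 at P15 and 6.95, 6.79 and 7.36 at P90 and rose by 1.45 (SE 0.13, adjusted p = 1.17e-05). Mylk2, the myosin light chain kinase of skeletal muscle, rose by 1.30, its relative Mylk4 by 1.78, and Xirp2, an actin-binding protein of muscle and of hair cell stereocilia, by 1.41. These genes passed under all 15 alternatives.

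Among the falls, Panx3 led. It encodes a pannexin channel of osteoblasts and cartilage cells and read 5.59, 5.87 and 5.32 at P15 and 2.87, 2.31 and 3.27 at P90, a fall of 2.78 (SE 0.24, adjusted p = 1.05e-05). The groups did not overlap, and the fall passed the test under all 15 alternatives. Prss35, which encodes a secreted protein related to serine proteases, fell by 2.01 (SE 0.13, adjusted p = 1.69e-06), from 6.73, 6.80 and 6.52 to 4.56, 4.52 and 4.93. Sox11, a transcription factor of immature neurons, fell by 1.89 and Mia, a secreted protein of cartilage, by 1.70. Stfa2 and Stfa3, stefins of the myeloid lineage, fell by 2.25 and 1.84, but the values on P90 replicate 3 were 4.44 and 5.20 against 2.28 and 3.41 on replicate 1. Stefin A genes, and Ifi214 of the interferon-inducible p200 family, which fell by 1.84, have near-identical copies, so their probe sets may share signal.

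**Figure D1:**
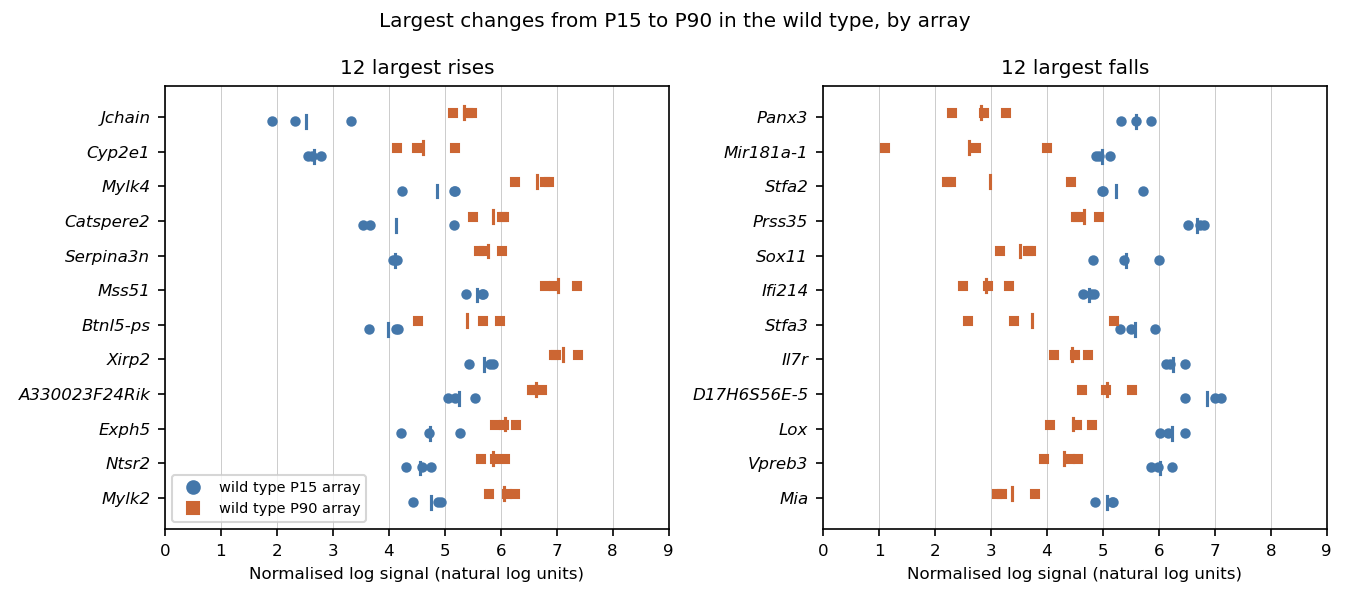
Normalised log signal (horizontal axis, natural log units) of the 12 genes with the largest rises and the 12 with the largest falls on each wild type array; circles are P15 arrays, squares P90 arrays and short bars group means. The groups do not overlap, which the choice of these genes required, and Stfa2, Stfa3 and Mir181a-1 have P90 arrays far apart.

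Genes of B cell precursors fell together. Of 20 measured genes of pre-B cells and immunoglobulin gene recombination, 17 fell and 1 rose, with a median change of -1.14. The list mean was 5.77, 5.69 and 5.54 on the P15 arrays and 4.70, 4.60 and 4.71 on the P90 arrays. These lists were drawn up with earlier results of these data known, so their counts describe the arrays and are not independent evidence.

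The recombination machinery itself fell. Rag1 and Rag2 encode the recombinase that cuts immunoglobulin genes. Rag1 read 6.22, 5.90 and 5.74 at P15 and 4.28, 4.28 and 4.41 at P90, a fall of 1.63 (SE 0.16, adjusted p = 2.82e-05). Rag2 read 4.17, 3.99 and 4.10 and then 2.46, 2.00 and 2.33, a fall of 1.82 (SE 0.14, adjusted p = 7.16e-06). Neither gene's groups overlapped. Dntt, the polymerase that adds bases at the joints, fell by 1.30.

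The receptors and adaptors of the precursors moved the same way. Il7r, the receptor for interleukin 7 on which mouse B cell precursors depend, read 6.46, 6.20 and 6.13 and then 4.50, 4.13 and 4.73, a fall of 1.81 (SE 0.15, adjusted p = 7.77e-06). Vpreb3, a chaperone of the surrogate light chain, fell by 1.72, and Igll1, a part of that light chain, by 1.24. Blnk, the adaptor of the pre-B cell receptor, fell by 1.31, and Cd79a, a signalling chain of the receptor, by 1.40. The transcription factors Pax5, Bach2 and Ebf1, which set B cell identity, fell by 1.29, 1.20 and 0.57. The exceptions were Vpreb2, which rose by 0.68, and Vpreb1 and Arpp21, with changes of -0.38 and -0.06. Vpreb1 and Vpreb2 are near-identical copies whose signals may be shared.

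The count of 17 lower genes was 15 to 17 with any 1 wild type array left out, 14 with the sex score and 11 with P90 replicates 1 and 2 both left out. From E18.5 to P15, an interval that shares the P15 arrays, Rag1, Il7r and Vpreb3 had changed by 2.18, 3.17 and 2.92. In that interval 19.8% of all genes rose and 21.8% fell, 41.7% in all.

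Genes of later B cells were divided. Of 25 measured genes of mature B and plasma cells, 11 fell and 1 rose, with a median change of -0.13. Spib, a transcription factor of B cells, fell by 1.61, from 5.96, 5.66 and 5.76 to 4.21, 4.10 and 4.24 (SE 0.12, adjusted p = 4.10e-06). Ms4a1, which encodes CD20, fell by 1.28, Pou2af1, a coactivator of immunoglobulin genes, by 1.05, and Fcmr, the receptor for IgM, by 1.01. The 1 member that rose was Jchain. Ighm, the heavy chain of IgM, read 4.86, 4.63 and 4.84 and then 5.19, 5.27 and 4.64 and did not pass (adjusted p = 0.275). The count of 11 was 6 on the deposited values, where the median was 0.01, 5 with the sex score and 3 with P90 replicates 1 and 2 both left out.

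Other blood lineages gave few calls. In the erythroid list 15.4% fell and in the late granule list 7.14%, against 9.70% of all genes. Of 13 erythroid genes 2 fell, Tfrc, the transferrin receptor, by 0.60 and Rhag, a glycoprotein of the red cell membrane, by 0.88, and the median change was -0.47. Without P90 replicate 1, 5 erythroid genes fell, 3 did without P15 replicate 1, and 1 did without any other single wild type array. There were 9 falls with array medians subtracted, and in a fit of the 6 wild type arrays none did. None of the 7 genes of early neutrophil granules passed, and 1 of the 14 of late granules did, Mmp9, with -0.74. P90 replicate 1 stood apart in these lists. The mean of the erythroid list was 6.24 on it against 5.53 and 5.52 on the other P90 arrays, and that of the early granule list 5.89 against 5.27 and 4.97. The part of blood precursors in the cell cycle values below was not tested.

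Genes of cell division fell. Of 44 measured genes of the cell cycle and DNA replication 32 fell and none rose, and all 44 changes were below 0, with a median of -0.70. The list mean was 5.63, 5.94 and 5.68 on the P15 arrays and 5.44, 4.83 and 4.97 on the P90 arrays, so that P90 replicate 1 lay nearest to the P15 arrays.

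At the entry to S phase, E2f1, a transcription factor that switches on replication genes, read 4.62, 4.57 and 4.41 at P15 and 3.94, 3.57 and 3.56 at P90, a fall of 0.85 (SE 0.13, adjusted p = 0.000846). Cdc6, a loader of the replicative helicase, fell by 0.83 (SE 0.15, adjusted p = 0.00208). Neither gene's groups overlapped. In mitosis, Ttk, a kinase of the spindle checkpoint, read 4.73, 5.06 and 4.83 and then 4.04, 3.34 and 3.94, a fall of 1.10 (SE 0.20, adjusted p = 0.00240). Cenpe and Cenpf, proteins of the kinetochore, fell by 1.05 and 1.07, and Foxm1, a transcription factor of mitotic genes, by 0.72. Mki67, the proliferation antigen Ki-67, fell by 0.75, with P90 replicate 1 at 7.03, close to the lowest P15 array at 7.06.

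The size of the count rested on a few arrays, while the median stayed between -0.55 and -0.90 in the leave-one-out fits. The count was 8 without P15 replicate 2, 8 without P90 replicate 2 and 41 without P90 replicate 1. It was 4 with the sex score and 11 when 4 arrays, listed under processing, were given a term. Without P90 replicates 1 and 2, which leaves 1 array at P90, the median was -0.78.

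Promoters of fallen genes were searched for short elements, and those of cell cycle genes are shown because many hold the same one. The 250 bases before the start of the gene were searched on both strands for CCAAT, the CCAAT box bound by NF-Y, and for TTTGAA, the core of the cell cycle homology region (CHR). Of the 32 fallen genes 27 had a promoter in the RefSeq table of GRCm38.p6. The CCAAT box was found in 21 of them (77.8%), against 35.2% of 14959 promoters of autosomal genes. The CHR core was found in 5 of the 27, against 13.6% of all promoters. For the pre-B cell list, the EBF1 motif, a palindrome bound by Ebf1, was found on either strand in 0 of 15 promoters of fallen genes, against 0.86% of all. A match is a description of these letters and not a measured binding site. The promoters of Ttk (chr9:83834439-83834688, plus strand) and Cenpf (chr1:189688087-189688336, minus strand), which each hold 2 CCAAT boxes, and of Kif11 (chr19:37376132-37376381, plus strand), which holds both elements, are printed 5′ to 3′ with the matches on either strand in capitals. Kif11, the motor that pushes the spindle poles apart, fell by 0.93 and was picked for its motifs.
Ttk: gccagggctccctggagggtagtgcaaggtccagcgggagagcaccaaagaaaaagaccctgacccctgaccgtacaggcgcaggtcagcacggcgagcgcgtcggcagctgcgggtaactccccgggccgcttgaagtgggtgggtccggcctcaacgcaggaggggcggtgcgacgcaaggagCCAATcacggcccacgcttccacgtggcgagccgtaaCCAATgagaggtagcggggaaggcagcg
Cenpf: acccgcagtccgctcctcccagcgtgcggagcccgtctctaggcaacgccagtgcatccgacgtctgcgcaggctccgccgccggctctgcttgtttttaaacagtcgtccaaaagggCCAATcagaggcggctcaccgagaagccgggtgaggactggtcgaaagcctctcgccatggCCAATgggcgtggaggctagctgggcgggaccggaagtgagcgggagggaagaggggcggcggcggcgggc
Kif11: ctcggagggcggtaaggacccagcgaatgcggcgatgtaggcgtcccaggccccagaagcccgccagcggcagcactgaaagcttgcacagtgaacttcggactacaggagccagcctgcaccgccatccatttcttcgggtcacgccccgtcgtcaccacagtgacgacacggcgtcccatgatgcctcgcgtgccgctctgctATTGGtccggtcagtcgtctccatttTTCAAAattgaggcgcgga

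Genes of microRNAs, short RNAs that pair through their seed with target messages, included some of the lowest values. They were taken up after their values had been seen. The probe sets lie in the hairpin or its precursor and do not tell the 2 arms apart, so the values are of the gene's RNA and not of the mature form. Of 257 measured microRNA genes 48 rose (18.7%) and 24 fell (9.34%), against 8.16% and 9.70% of all 19106 genes. The share of falls was thus near that of all genes. The rises were not level over the P90 arrays: the mean of the 48 genes was 4.09, 3.99 and 4.08 at P15 and 4.87, 5.01 and 4.33 at P90. Without P90 replicates 1 and 2 together 1 rose and none fell. Without P90 replicate 2 the counts were 5 higher and 11 lower, without P90 replicate 1 12 and 15, without P90 replicate 3 64 and 36, without P15 replicate 2 8 and 11, without P15 replicate 1 22 and 25, and without P15 replicate 3 28 and 18. Scaling moved the split: 121 rose and 9 fell on the deposited values, and 72 and 25 with array medians subtracted. The counts were 5 and 8 with the sex score and 1 and 5 once the same 4 arrays had a term of their own. In the null 0 rose and 11 fell, and the difference between the genotypes did not pass for any of them.

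Families that share a seed held members that fell and members that rose. The mature sequences below, from RefSeq on GRCm38.p6, are printed 5′ to 3′ with the seed, bases 2 to 8, in capitals. The miR-181 genes Mir181a-1, Mir181a-2, Mir181b-1 and Mir181b-2 make 2 mature forms with the seed ACAUUCA, which miR-181c and miR-181d carry too. The measured members of the miR-17-92 cluster on chromosome 14 carry the seeds AAGGUGC in miR-18a, AAAGUGC in miR-17 and miR-20a, and GUGCAAA in miR-19a and miR-19b. Mir92-1 of that cluster, whose miR-92a has the seed AUUGCAC, has no value because its probe set carries the symbol of Mir17hg as well. The last 2 entries come from the neighbouring erythroid genes Mir144 and Mir451a on chromosome 11.
miR-181a-5p: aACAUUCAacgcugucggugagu
miR-181b-5p: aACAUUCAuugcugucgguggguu
miR-17-5p: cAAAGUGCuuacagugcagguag
miR-18a-5p: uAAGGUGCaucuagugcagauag
miR-19a-3p: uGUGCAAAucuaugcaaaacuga
miR-20a-5p: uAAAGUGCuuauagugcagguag
miR-19b-3p: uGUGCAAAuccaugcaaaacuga
miR-144-3p: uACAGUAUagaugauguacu
miR-451a: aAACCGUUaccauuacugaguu

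Of the 6 miR-181 genes, known for their levels in lymphocytes, the 4 on chromosomes 1 and 2 fell. Mir181a-1 read 4.87, 5.13 and 4.93 at P15 and 2.73, 1.11 and 4.00 at P90, a fall of 2.36 (SE 0.48, adjusted p = 0.00485), which passed under 11 of the 15 alternatives. Mir181b-1, its neighbour on chromosome 1, read 6.52, 6.56 and 6.54 and then 5.37 ± 0.36 (SD, n = 3), a fall of 1.17 (SE 0.17, adjusted p = 0.000621), which passed under 14. Their copies on chromosome 2, Mir181a-2 and Mir181b-2, fell by 0.85 and 0.77, and the groups overlapped in none of the 4. The copies encode identical mature forms, so their probe sets may share signal. Of the pair on chromosome 8, Mir181d rose by 0.68 (SE 0.19, adjusted p = 0.0265), from 4.20, 4.10 and 4.21 to 5.11, 5.17 and 4.28, and Mir181c changed by 0.20 (adjusted p = 0.264). Other seeds were divided too. Mir15b and Mir16-2 fell by 1.12 and 0.61 while Mir195a, with the same seed AGCAGCA, rose by 0.65, and Mir99a fell by 0.65 while Mir99b, with the same seed ACCCGUA, rose by 0.37. The P90 value of replicate 3 was the lowest of the 3 in each of the genes that rose here.

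The miR-17-92 cluster, a set of microRNAs cut from 1 transcript and known from dividing B cell precursors, did not move as a block. Mir18 fell by 1.84, from 3.58, 3.82 and 3.57 to 1.24, 1.37 and 2.84 (SE 0.43, adjusted p = 0.0109). Mir20a fell by 1.60, Mir19a by 1.45 and Mir19b-1 by 0.89. Mir17, first in the cluster, read 3.38, 3.69 and 3.00 and then 3.43, 3.42 and 3.32, and the host transcript Mir17hg changed by 0.01 (adjusted p = 0.945). Of the erythroid pair Mir144 fell by 1.71 and Mir451a by 1.14. In each of these fallen genes P90 replicate 3 was the highest of the 3 P90 arrays. Their higher group means all lay below the median of all values, 4.36. They passed under 7 (Mir19a) to 10 (Mir20a and Mir451a) of the 14 alternatives that gave a value.

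**Figure D2:**
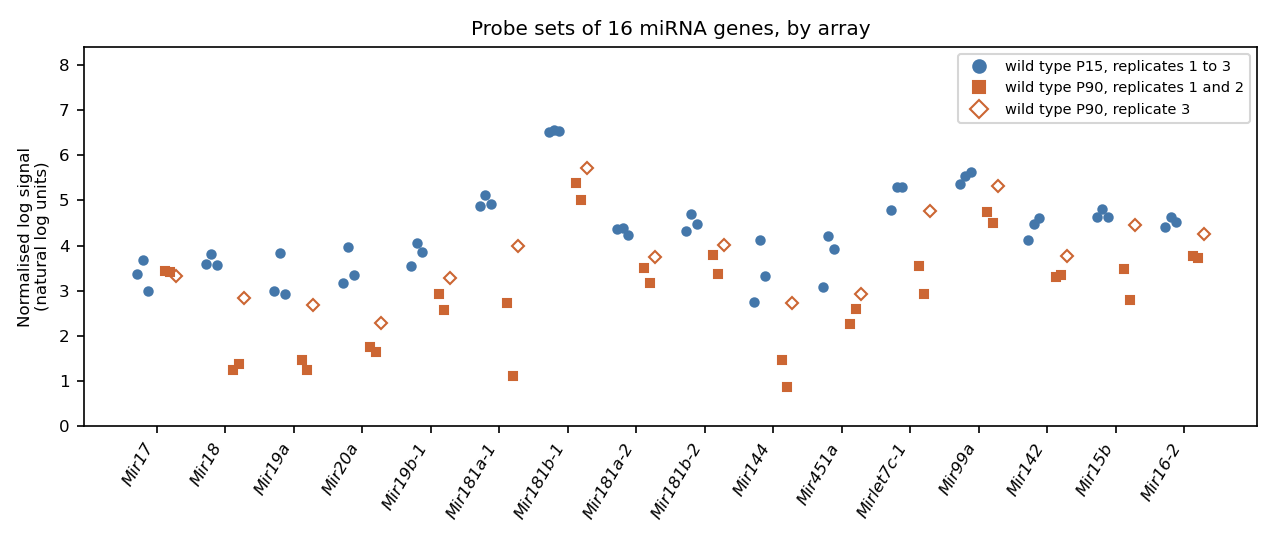
Normalised log signal (vertical axis, natural log units) of the probe sets of 16 microRNA genes on the 3 wild type P15 arrays (circles) and the 3 wild type P90 arrays (filled squares for replicates 1 and 2, open diamond for replicate 3). The P90 values lie below those of P15 for 15 genes and overlap them for Mir17, and replicate 3 is the highest P90 array for the 15.

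Genes of the collagen matrix fell as a group. Of 24 genes that modify, cross-link or assemble collagen and its partners 19 fell and none rose (median -0.65), and of 21 fibrillar and network collagens 14 fell and none rose (median -0.52). The mean of the assembly list was 5.91, 6.05 and 5.65 at P15 and 5.18, 5.14 and 5.28 at P90.

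Among the collagens, Col1a2, a chain of the collagen I of bone and skin, read 9.13, 9.08 and 8.96 at P15 and 7.97, 8.08 and 8.11 at P90, a fall of 1.01 (SE 0.15, adjusted p = 0.000608). Its partner Col1a1 fell by 0.98. The spread within either age was far smaller than the drop. Col5a2, which sets the width of collagen I fibrils, fell further, by 1.56, from 6.98, 7.30 and 6.79 to 5.33, 5.43 and 5.62 (SE 0.15, adjusted p = 2.90e-05). Col24a1 fell by 0.91, Col3a1 by 0.81 and Col6a1 by 0.64.

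Among the proteins that work on collagen, Lox, the oxidase that starts its cross-links, read 6.17, 6.47 and 6.03 and then 4.05, 4.54 and 4.80, a fall of 1.76 (SE 0.20, adjusted p = 0.000113). Plod2 and Plod1, hydroxylases of lysine, fell by 1.05 and 0.73, and P3h1, a hydroxylase of proline, by 0.77. Fbn2, a fibrillin of growing microfibrils, fell by 1.54, and Sparc, a collagen-binding protein of bone and other matrix, by 0.64 from a level of 8.74 ± 0.09 to 8.10 ± 0.08 (SD, n = 3). Each of these 6 genes had P90 arrays wholly below those of P15. The assembly count was 8 without P15 replicate 2 and 8 with the sex score, and 6 without P90 replicates 1 and 2; the collagen count was also 6 there.

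Genes of bone cells fell on both sides of turnover. Of 14 osteoblast and osteocyte genes 9 fell and 1 rose (median -0.73), and of 15 osteoclast genes 11 fell and none rose (median -0.72). Sp7, the transcription factor of osteoblasts, read 6.08, 6.39 and 5.95 at P15 and 5.15, 5.44 and 5.36 at P90, a fall of 0.82 (SE 0.12, adjusted p = 0.000458). Ibsp, a sialoprotein of mineralising matrix, fell by 1.21, Alpl, the alkaline phosphatase that frees phosphate for mineral, by 0.92, and Ifitm5, a membrane protein of osteoblasts, by 0.86. The gene that went the other way was Fgf23, a hormone of osteocytes that lowers blood phosphate. It read 4.08, 4.49 and 4.23 and then 5.45, 5.32 and 5.32, a rise of 1.10 (SE 0.19, adjusted p = 0.00180). Its P90 arrays were nearly level and lay wholly above P15.

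Among the osteoclast genes, Ctsk, the protease that digests bone collagen, read 7.24, 7.66 and 7.03 and then 6.57, 5.96 and 6.30, a fall of 1.03 (SE 0.22, adjusted p = 0.00699). Atp6v0d2, a subunit of the proton pump, fell by 1.16, Dcstamp and Ocstamp, needed for the fusion of precursors, by 0.98 and 0.72, and Calcr, the calcitonin receptor, by 0.73. The mean of the list was 5.69, 5.86 and 5.48 at P15, whereas at P90 it read 5.13, 5.11 and 5.07. The count of 11 was 6 on the deposited values, 7 without P15 replicate 2, 7 without P90 replicate 2, 7 with the sex score and 1 without P90 replicates 1 and 2.

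Cartilage genes split. Of 24 measured, 11 fell and 5 rose (median -0.44). Col2a1, the collagen of cartilage, read 7.04, 7.10 and 6.62 at P15 and 5.46, 5.38 and 5.21 at P90, a fall of 1.57 (SE 0.15, adjusted p = 2.65e-05). Col11a1 and Col11a2, chains of the collagen XI that is built into its fibrils, fell by 1.69 and 1.13, Matn3, a matrilin, by 1.18 and Acan, the large proteoglycan aggrecan, by 0.97. Comp, a matrix protein of cartilage and tendon, rose by 0.85, from 4.61, 4.57 and 4.47 to 5.29, 5.34 and 5.58 (SE 0.12, adjusted p = 0.000551). The other members that rose, named after their values were seen, were Cytl1, Prg4, Ihh and Sox9, with 0.88, 0.80, 0.50 and 0.30. Without P90 replicates 1 and 2 the cartilage counts were 3 lower and 2 higher, and the osteoblast counts 4 lower and none higher.

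**Figure D3:**
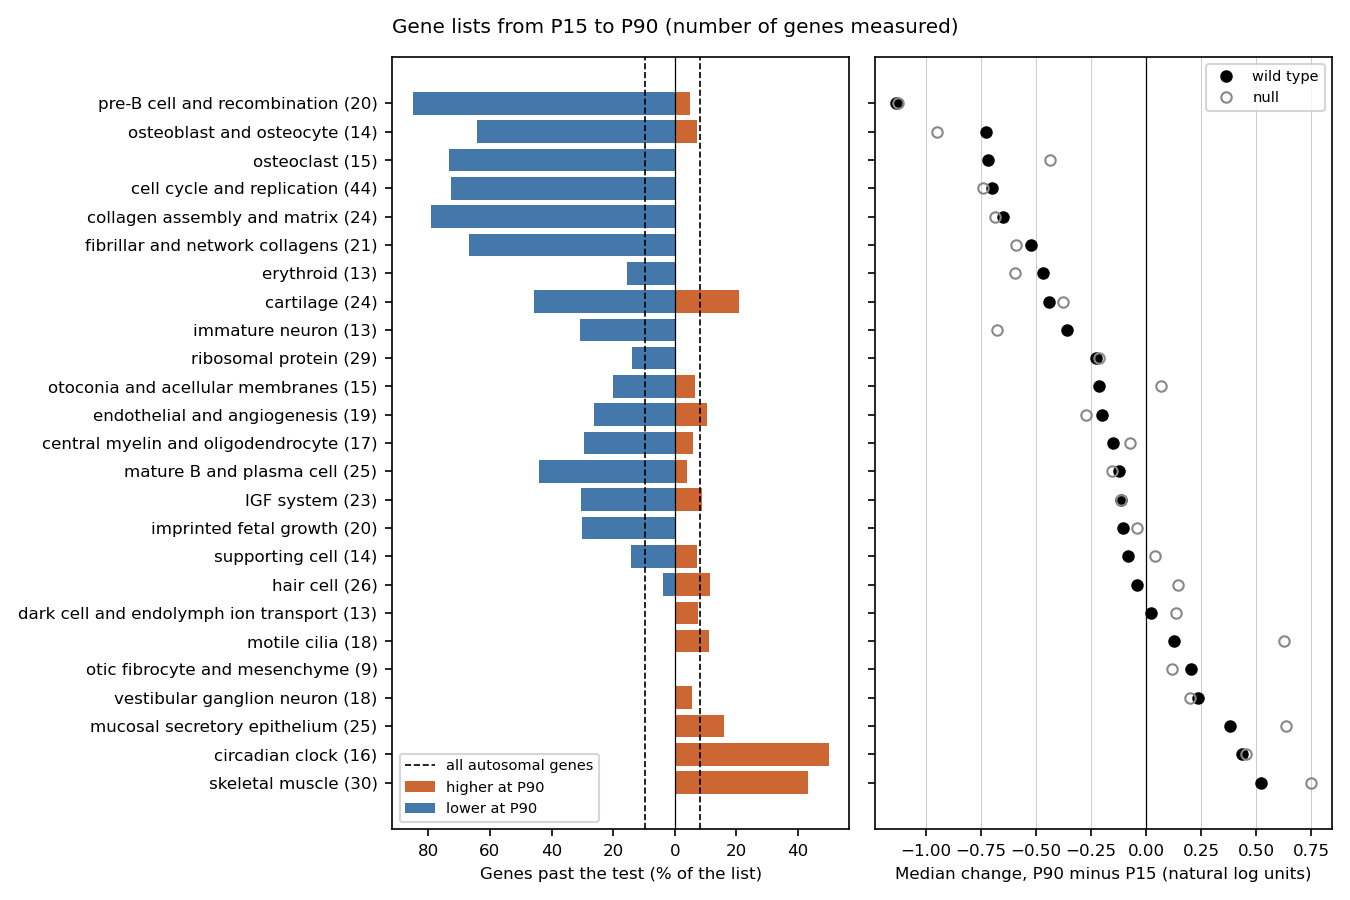
Left, the share of each list's genes that rose (orange) or fell (blue) from P15 to P90, with dashed lines at the shares over all 19106 autosomal genes (8.16% and 9.70%); right, the median change of each list in natural log units for the wild type (filled) and the null (open). Pre-B cell, cell cycle, collagen and bone lists lie far left of the dashed line, and lists of vestibular cells lie nearer to it.

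Skeletal muscle genes rose. Of 30 measured 13 rose and none fell, with a median change of 0.52, and the mean of the list was 5.89, 5.72 and 5.73 at P15 and 6.29, 6.19 and 6.32 at P90. Tnnc2, the calcium-binding troponin of fast fibres, read 6.68, 6.51 and 6.59 and then 7.64, 7.45 and 7.61, a rise of 0.97 (SE 0.15, adjusted p = 0.00104). Tnni2 and Tnnt3, the inhibitory and tropomyosin-binding troponins of fast fibres, rose by 0.93 and 0.75. Tnnc1, the troponin C of slow fibres, rose by 0.91, and Ryr1, the calcium release channel, by 0.94. Chrng, the fetal subunit of the muscle acetylcholine receptor, rose by 0.54, from 3.50 ± 0.09 to 4.04 ± 0.18 (SD, n = 3). The count of 13 was 7 without P15 replicate 2, 6 with the sex score and 4 without P90 replicates 1 and 2. With array medians subtracted 8 rose and 1 fell.

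Genes of the circadian clock rose on its repressing and output side. Of 16 measured 8 rose and none fell, with a median change of 0.44. Hlf, an output factor that binds D-boxes, read 5.24, 5.03 and 5.27 at P15 and 5.72, 5.77 and 5.80 at P90, a rise of 0.58 (SE 0.10, adjusted p = 0.00186). Tef, its relative, rose by 0.43. The groups of neither gene overlapped. Of the repressors, Per2 rose by 0.50 (SE 0.12, adjusted p = 0.00965), Per3 by 0.51 and Cry1 by 0.31. Nr1d1 and Nr1d2, nuclear receptors that repress the activator Arntl, rose by 0.76 and 0.45, and Bhlhe40, a further repressor, by 0.48. Arntl itself changed by -0.24 and did not pass (adjusted p = 0.139). The labels give no hour of dissection, so age and time of day cannot be told apart.

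The clock calls were fragile. The count was 1 without P15 replicate 2, 3 without P90 replicate 1, 5 without P15 replicate 1, 1 with the sex score, 1 in a fit of the 6 wild type arrays alone and 0 without P90 replicates 1 and 2, where the median was still 0.44. With array medians subtracted 2 rose and 1 fell, with a median of 0.17, and on the deposited values 4 rose. P15 replicate 2 had the lowest mean of the list, 5.39 against 5.66 and 5.63.

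Clock factors bind short elements, which were searched in the same window on both strands. Of the 8 genes that rose 6 had a promoter in the table. The E-box CACGTG, bound by the activators of the clock, was found in 2 (33.3%), against 7.04% of all promoters, and the D-box TTATGTAA, bound by Tef and Hlf, in 1 (16.7%), against 0.80%. The promoter of Per3 (chr4:151044666-151044915, minus strand) holds 2 D-boxes, and that of Cry1 (chr10:85185055-85185304, minus strand) holds an E-box. They are printed 5′ to 3′ with these matches in capitals, and 6 promoters are too few to compare the shares.
Per3: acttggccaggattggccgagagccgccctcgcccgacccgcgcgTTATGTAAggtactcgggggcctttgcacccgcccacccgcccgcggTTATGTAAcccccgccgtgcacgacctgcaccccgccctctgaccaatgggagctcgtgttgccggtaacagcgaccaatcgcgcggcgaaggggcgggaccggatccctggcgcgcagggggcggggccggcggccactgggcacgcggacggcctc
Cry1: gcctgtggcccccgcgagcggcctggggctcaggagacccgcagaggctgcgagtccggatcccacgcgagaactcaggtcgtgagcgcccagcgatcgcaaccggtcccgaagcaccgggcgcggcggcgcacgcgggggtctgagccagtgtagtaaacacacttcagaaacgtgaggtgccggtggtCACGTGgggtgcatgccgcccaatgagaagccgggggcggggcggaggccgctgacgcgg

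Among neural genes, members of the immature neuron list and of the oligodendrocyte lineage fell. Of 13 immature neuron genes 4 fell and none rose (median -0.36). Sox4, a partner of Sox11, read 5.74, 6.06 and 5.44 and then 4.73, 4.73 and 4.53, a fall of 1.08 (SE 0.15, adjusted p = 0.000478). Marcksl1 and Dpysl3, proteins of growing neurites, fell by 0.93 and 0.76. Sox4 is also on the pre-B cell list. Of 17 genes of central myelin 5 fell and 1 rose (median -0.15). Gpr17, a receptor of oligodendrocyte precursors as they start to differentiate, read 4.86, 4.81 and 4.71 and then 3.53, 3.88 and 3.58, a fall of 1.13 (SE 0.10, adjusted p = 1.17e-05). Cnp, Ugt8a and Olig2 fell by 0.62, 0.63 and 0.65, and Mobp, a protein of compact myelin, changed by 0.01 (adjusted p = 0.966). Subtracting array medians gave falls of 7 immature neuron genes and 8 of central myelin, and on the deposited values 4 and 3.

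Of 19 receptor genes for GABA and glutamate 1 fell. Grin2b, the NMDA receptor subunit of young synapses, read 5.29, 5.33 and 4.97 and then 3.87, 3.99 and 4.02, a fall of 1.24 (SE 0.19, adjusted p = 0.000774). Grin2c, the subunit of mature cerebellar granule cells, changed by 0.42 with overlapping groups (adjusted p = 0.194). Of 14 cerebellar granule neuron genes 1 fell, Zic4 by 0.51. The falls were 5.26% of the receptor list and 7.14% of the granule neuron list, against 9.70% of all genes.

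The insulin-like growth factor system, the pathway the series was made to study, moved at several points. Of 23 measured genes 7 fell and 2 rose (median -0.12). On the deposited values 1 fell and 4 rose, with a median of 0.04. Of the ligands, Igf1 fell by 0.43 (SE 0.12, adjusted p = 0.0218) without overlap of the values given above, and Igf2, the fetal ligand, read 6.32, 6.38 and 6.10 and then 5.94, 5.86 and 5.73, a fall of 0.42 (SE 0.10, adjusted p = 0.0121). The receptor Igf1r changed by 0.07 (adjusted p = 0.559) and the Igf2 scavenger Igf2r by -0.12 (adjusted p = 0.288). Of the binding proteins Igfbp6, which prefers Igf2, rose by 0.43 (SE 0.07, adjusted p = 0.00187), and the adaptor Irs2 rose by 0.39. Igf2bp3, a fetal RNA-binding protein that binds Igf2 message, moved furthest, from 4.43, 4.75 and 4.11 to 2.73, 2.81 and 2.84, a fall of 1.64 (SE 0.14, adjusted p = 1.17e-05). With the sex score, and without P15 replicate 2, 1 member fell and 1 rose, without P90 replicate 2 the counts were 2 and 1, and without P15 replicate 1 or P90 replicate 1 they were 4 and 2.

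Of 20 imprinted genes of fetal growth 6 fell and none rose (median -0.11). Mest, a paternally expressed enzyme of mesoderm, read 6.02, 6.10 and 5.82 and then 5.24, 4.98 and 5.29, a fall of 0.81 (SE 0.12, adjusted p = 0.000609). Grb10, an inhibitor of insulin and IGF receptor signalling, fell by 0.51 and Zdbf2 by 0.72. The count was 9 with array medians subtracted, 2 with the sex score, 2 on the deposited values and 2 without P90 replicates 1 and 2.

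Genes of 5 lists of vestibular cells gave few calls. Over these 5 lists, 9 of 79 genes passed (11.4%), against 17.9% of all genes. The total leaves out the list of otoconia and acellular membranes, given below. In that list 3 of 15 genes fell and 1 rose, a larger share than among all genes, so the low total holds for the 5 lists alone. Of 26 hair cell genes 3 rose and 1 fell (median -0.04), of 14 supporting cell genes 1 rose and 2 fell (median -0.08), and of 13 genes of dark cells and endolymph transport 1 rose and none fell (median 0.02). None of the 9 otic fibrocyte genes passed, and 1 of 18 genes of vestibular ganglion neurons rose. Scaling moved these counts and the signs of the small medians. On the deposited values 12 hair cell genes rose and none fell (median 0.31) and 1 supporting cell gene rose (median 0.07). With array medians subtracted 7 hair cell genes rose and 1 fell (median 0.03), and 6 supporting cell genes fell (median -0.21). Without P15 replicate 2, P90 replicate 1 or P90 replicate 2 a single hair cell gene rose and none fell. Of the supporting cell genes none rose and 1 fell without P15 replicate 1, P15 replicate 3, P90 replicate 1 or P90 replicate 2, and 4 fell without P90 replicate 3.

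Among them, Lgr5, a Wnt-responsive receptor of supporting cells, read 5.27, 5.17 and 5.33 at P15 and 4.57, 4.52 and 4.86 at P90, a fall of 0.61 (SE 0.10, adjusted p = 0.00152). Of the 3 hair cell genes that rose, Xirp2 is also a muscle gene and is given above, Loxhd1, a protein of the stereocilia membrane, rose by 0.43 and Espn, an actin bundler of stereocilia, by 0.47. Pcdh15, a tip-link cadherin, fell by 0.39 (adjusted p = 0.0340), and on the deposited values it changed by 0.08. Of the hair cell markers that did not pass, Otof, the calcium sensor of their synapse, read 4.12, 4.24 and 4.05 and then 4.23, 4.03 and 3.96.

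Of 15 genes of otoconia and acellular membranes 3 fell and 1 rose (median -0.22), and 1 of the falls passed under all 15 alternatives. Oc90, the main matrix protein of otoconia, read 4.59, 4.88 and 3.74 at P15 and 3.95, 3.71 and 3.51 at P90, a fall of 0.68 (SE 0.22, adjusted p = 0.0407) although the groups overlapped. Otol1, the otoconial collagen-like protein, fell by 0.50 with overlapping groups too (adjusted p = 0.0358). In the interval before, from E18.5 to P15, Oc90 and Otol1 had changed by -4.03 and -1.62. On the deposited values 5 otoconial genes rose and 1 fell, with a median of 0.09. Without P15 replicate 2 the otoconial list had 1 fall and no rise, and without P90 replicate 3 it had 1 fall and 2 rises. Kcnj10, a potassium channel of dark and glial cells, rose by 0.32, and Gjb6, connexin 30, by 0.31.

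**Figure D4:**
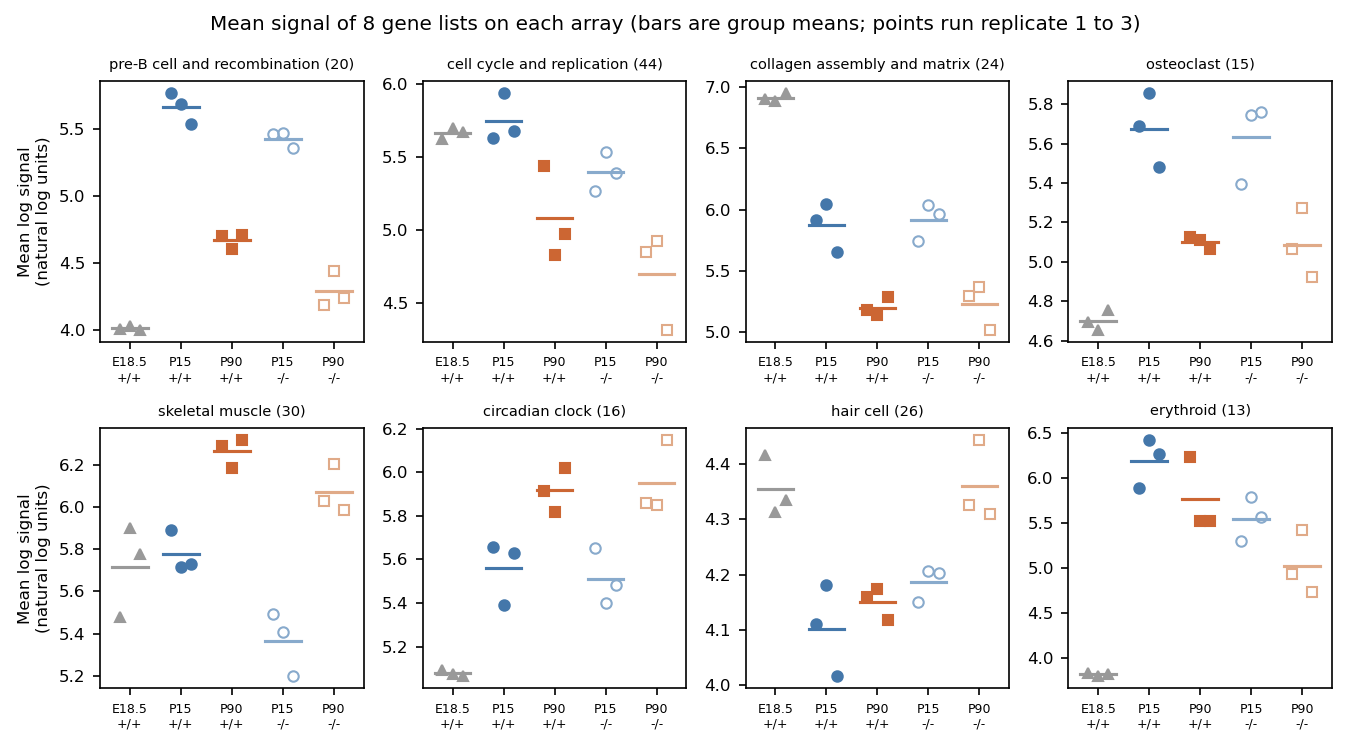
Mean normalised log signal (vertical axes, natural log units, each with its own range) of 8 gene lists on each array of the wild type at E18.5, P15 and P90 and of the null at P15 and P90; bars are group means, and the number of genes is in brackets. P90 replicate 1 of the wild type lies above the other P90 arrays in the cell cycle and erythroid lists, and the hair cell panel spans less than 0.5 log units.

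The Igf1 -/- mice passed through the same interval on arrays of their own, so the change itself can be compared between genotypes. In the null 1178 genes (6.17%) rose and 1306 (6.84%) fell. Of the genes that rose 552 were shared, 35.4% of the wild type's and 46.9% of the null's, and of those that fell 948 were shared, 51.2% and 72.6%. The change had the same sign in the null for 95.0% of the genes called in the wild type, against 72.8% of all genes, and its correlation across the 19106 genes was 0.678, as a description, since genes are not independent replicates.

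Medians of the lists with the most calls had the same sign in both genotypes. The pre-B cell median was -1.14 in the wild type and -1.13 in the null, that of the cell cycle -0.70 and -0.74, of collagen assembly -0.65 and -0.69, of the osteoclast -0.72 and -0.44 and of skeletal muscle 0.52 and 0.75. Other lists lay further apart, with medians of 0.13 and 0.63 for motile cilia, 0.15 and 0.81 for adipocytes, -0.36 and -0.68 for immature neurons and -0.12 and 0.20 for complement. Single genes stood close too: Panx3 fell by 2.78 in the wild type and by 2.49 in the null, and Jchain rose by 2.82 and 2.47.

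The difference between the genotypes passed the test for 3 of 19106 genes (0.0157%), while 1219 had an unadjusted p under 0.05. Mmp12, an elastase of macrophages, read 4.11, 3.30 and 3.82 at P15 and 3.86, 3.80 and 4.05 at P90 in the wild type, where it changed by 0.16, and it rose by 2.29 in the null (difference -2.13, adjusted p = 0.0168). Clec4n, a C-type lectin of macrophages and dendritic cells, fell by 0.59 in the wild type and rose by 0.81 in the null (difference -1.40, adjusted p = 0.0416). The third, 1700006A11Rik, lay below the median of all values, 4.36, on all wild type arrays, rose by 0.49 in the wild type and changed by -0.61 in the null (difference 1.11, adjusted p = 0.0382). Pde1c, a phosphodiesterase, rose by 1.13 in the wild type, from 4.67, 4.55 and 4.34 to 5.64, 5.77 and 5.54, against 0.21 in the null, and the difference did not pass (adjusted p = 0.0816). The count of 3 was 0 without P90 wild type replicate 2, 7 without P90 wild type replicate 3 and 0 without P15 null replicate 3 or P90 null replicate 2. It was 1 without P15 replicate 1 of either genotype or P15 replicate 2 of the wild type.

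**Figure D5:**
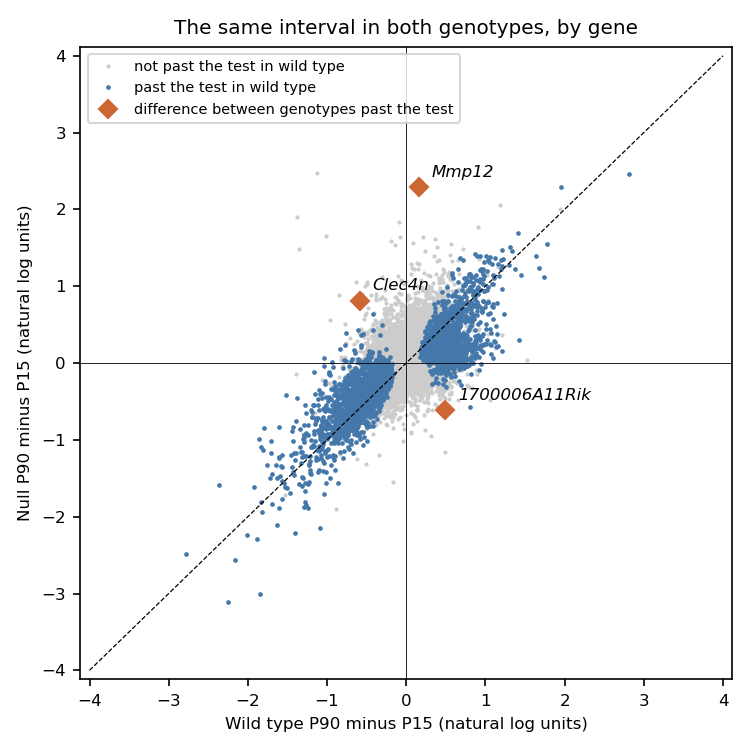
Change from P15 to P90 of 19106 autosomal genes in the wild type (horizontal axis) and the null (vertical axis), both in natural log units; blue points passed the test in the wild type, diamonds mark the 3 genes whose difference between genotypes passed, and the dashed line marks equal change. Most blue points lie in the lower left and upper right of the plot, and Mmp12 lies near 0 on the horizontal axis.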

How the data were processed

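Vestibular organs were profiled on Affymetrix Mouse Gene 1.1 ST arrays from 100 ng of total RNA, per the labels' protocols. The values the authors deposited are 1 normalised natural log signal per probe set and array; no source states the base, which was taken from the range of the values, nor how probes were summarised. Deposited array medians ran from 3.88 to 4.82, so arrays were quantile normalised here over all 18. Of 28853 probe sets 21789 had 1 gene symbol, 1621 had several and 5443 were not listed. The probe set with the highest mean stood for each gene. limma 3.58.1 (R 4.3.3; lmFit and eBayes, 6 group means, no covariate) was fitted to 19938 genes, of which 750 on sex chromosomes or the mitochondrial genome and 82 without a chromosome are not reported apart from the sex check. Where limma's result is said to be adjusted, Benjamini-Hochberg adjustment over all 19938 is meant.

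Genes were named by rule: the 12 largest rises and the 12 largest falls that passed, whose arrays did not overlap and whose higher group mean lay above the median of all values; the 4 members of each list with the smallest p (6 where at least 10 passed); the defining markers; and the 10 smallest p for the difference between genotypes. Igf1, the gene deleted in the null, was added. The microRNA genes apart from Mir181a-1 and some list members (Arntl, Arpp21, Bhlhe40, Cd79a, Cry1, Cytl1, Dntt, Ebf1, Igf1r, Igf2r, Ighm, Igll1, Ihh, Kif11, Mki67, Nr1d1, Pax5, Per3, Prg4, Sox9 and Vpreb2), as well as the promoters shown, were chosen outside the rule after their values were seen. Members and lists were chosen with earlier results of these data known. Prx, Bglap and Ighg1 have no value because no probe set carries the symbol alone, and Alas2 is not autosomal.

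On simulated data with 200 changed genes among 19938, the fit recovered 43.0% of changes of 0.5 and 80.0% of changes of 1 log unit, with 3 false calls. The simulated noise was independent between genes and arrays, with 1 spread per gene for all groups. The real arrays share structure, so the 3 false calls do not give the rate of false calls here. Deviations of same-numbered P15 and P90 arrays had correlations of -0.04, -0.16 and 0.08, so the numbers were not taken to pair the arrays. Sequences came from RefSeq tables of GRCm38.p6. Alternatives covered the scaling, the probe set, a filter on dim genes, the replicate block, sex, a term for 4 arrays and each array left out. Those 4 arrays are replicates 2 and 3 of the null at E18.5 and replicates 1 and 2 of the wild type at P90. They were set by name, and no value given here shows that they group.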

Additional observations from a re-analysis of the deposited data

Results flagged for a closer look

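The change from P15 to P90 differed between wild type and null for 3 genes in limma's test of the difference itself: Mmp12 by -2.13, Clec4n by -1.40 and 1700006A11Rik by 1.11 log units. The 3 arrays of P90 and the 3 of P15 separated in opposite directions in the 2 genotypes for 70 of 19106 genes (0.366%). The share that would do so without any change was not tested. Among genes named here whose difference did not pass, 4 separated in opposite directions in this way (adjusted p from 0.115 to 0.765). They were Ucp1, the uncoupling protein of brown fat, with a difference of -2.85, Olfr768 with -1.06, Ccdc60 with -0.80 and Foxj1, the transcription factor of motile cilia, with -0.60. Groups of 3 arrays are too small for an outlier test, so no single array was tested for standing apart.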

How the results depend on the processing

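The counts of genes that rose and fell kept within 1.5 times of 1559 and 1853 with the mean of all probe sets, with bright genes alone and with the replicate block (1297 and 1635). They moved further under the other settings: 2667 and 4814 with array medians subtracted, 4874 and 456 on the deposited values, 291 and 540 with the sex score, 399 and 573 when the 4 arrays that stand together had a term, 390 and 605 in a fit of the 6 wild type arrays, and 128 and 248 without P90 wild type replicates 1 and 2. The last 2 rest on fewer arrays, and for the others the cause was not tested. Leaving out 1 array gave 465 to 2208 rises and 745 to 2471 falls. The count of genes that differed between the genotypes was 0 with array medians subtracted, with the sex score and with the term for 4 arrays, 1 on the deposited values, 1 with the replicate block, and 0 to 7 with 1 array left out. Of the 160 named genes that passed, 150 kept their call with the replicate block and 55 without P90 replicates 1 and 2. None turned sign under an alternative but Pcdh15 and Ccdc60, whose changes on the deposited values were 0.083 and 0.22. The array files give no detection calls, so signal over background was not used here.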

Other observations

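Outside the lists led with above, 19 endothelial genes were measured in the wild type, of which 5 fell and 2 rose between P15 and P90 (median -0.20). Over all genes 8.16% rose and 9.70% fell, and the count of each list here stands beside those shares. With array medians subtracted 10 fell and none rose, and on the deposited values 2 fell and 2 rose. Aplnr, the apelin receptor of growing vessels, read 5.41, 5.43 and 5.07 at P15 and 4.65, 4.49 and 4.38 at P90, a fall of 0.80 (SE 0.12, adjusted p = 0.000704), and Kdr, the main receptor for VEGF, fell by 0.53. Vwf, the clotting protein of endothelium, rose by 0.53 from 5.07, 5.16 and 5.09 to 5.89, 5.62 and 5.39. Leaving out P15 replicate 2, P90 replicate 1 or P90 replicate 2 left 2 falls and no rise, leaving out P15 replicate 1 left 2 falls and 1 rise, and leaving out P15 replicate 3 left 4 falls and no rise.

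Of 23 macrophage genes 4 fell and none rose (median 0.02). Tmem119, which marks microglia and is also made by osteoblasts, read 5.25, 5.38 and 5.13 and then 4.06, 4.08 and 4.64, a fall of 1.00 (SE 0.14, adjusted p = 0.000438), and Csf1r, the receptor for the macrophage growth factor, fell by 0.57. The count was 1 without P15 replicate 2 and 2 without P90 replicate 2, and on the deposited values 3 fell and 3 rose. Of 13 genes of cholesterol synthesis 3 fell and none rose (median -0.18), led by Sqle, the squalene epoxidase, which fell by 0.67 from 6.14, 6.17 and 6.09 to 5.49, 5.49 and 5.41 (SE 0.08, adjusted p = 0.000242) under all 15 alternatives. Without P15 replicate 2 or P90 replicate 2 it was the 1 gene of the list that fell, as on the deposited values, while 7 fell with array medians subtracted. Among 25 genes of mucosal secretory epithelium 4 rose, Krt8 and Krt5 by 0.64 and 1.15, and on the dim probe sets Obp2a and Muc5ac by 0.67 and 0.40. Without P15 replicate 1, P15 replicate 2 or P90 replicate 2, 1 gene of the list rose, without P15 replicate 3 or P90 replicate 1 2 did, and without P90 replicate 3 8 did. On the deposited values 18 rose, and 12 with array medians subtracted. Of 18 motile cilia genes 2 rose (11.1%), Dnah11 by 0.79 and Cfap43 by 0.86, near the 8.16% of all genes. In the null 11 rose, where 6.17% of all genes did. In the wild type 5 rose with array medians subtracted and 7 on the deposited values. The difference between the genotypes did not pass for any gene of that list. Of 29 ribosomal protein genes 4 fell (13.8%, median -0.23), against 9.70% of all genes. With array medians subtracted 22 fell. None did on the deposited values, or without P15 replicate 1, P15 replicate 2, P90 replicate 1 or P90 replicate 2.

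Small leucine-rich proteoglycans, which bind collagen fibrils, split: of 11 measured 4 fell and 2 rose. Lum, lumican, read 7.74, 7.98 and 7.72 and then 6.77, 6.65 and 7.24, a fall of 0.93 (SE 0.19, adjusted p = 0.00496), and Epyc fell by 0.83, whereas Prelp and Podn rose by 0.37 and 0.32. Without P15 replicate 2, P15 replicate 3 or P90 replicate 1 the counts were 1 lower and none higher, without P90 replicate 2 they were 1 and 1, and without P15 replicate 1 they were 2 and 2. Of 22 immediate early genes 3 fell (13.6%), Fosl2 by 0.90, Myc by 0.71 and Btg2 by 0.28, against 9.70% of all genes. Without P15 replicate 2 or P90 replicate 2, 1 did. With array medians subtracted 7 fell and 2 rose, and on the deposited values 2 fell and 4 rose. Of 8 astrocyte genes S100b, a calcium-binding protein, rose by 0.46 and Gja1, connexin 43, fell by 0.46. Each is 12.5% of the list, near the shares of all genes. Nlrc5, an activator of MHC class I genes, rose by 1.16 (adjusted p = 0.0241), with 7.37 and 7.40 on P90 replicates 1 and 2 and 6.01 on replicate 3, against 5.83, 5.72 and 5.75 at P15.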
